A study of Danio rerio with 11 samples.

Results

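The histone transcripts of zebrafish oocytes were followed through 50 genes, which carry the linker histones, the H2A and H3 variants and the core histones of the replication-dependent clusters. They were found by name among the 31952 genes of the deposited expression table: 55 names matched the histone name patterns, and 50 of these reached 1 FPKM in at least 2 of the 8 libraries. The 50 genes were 3 linker histones (h1m and h1-10 among them), 1 H2A.X gene (h2ax), 2 H2A.Z genes (h2az2a and h2az2b), 4 H3.3 genes, 16 H2A cluster genes, 1 H2B gene (hist1h2ba), 1 H3 gene (hist2h3c) and 22 entries named hist1h4l, which encode H4. Classes follow the deposited names, so a hist1h2a11 entry (ENSDARG00000086552) that is elsewhere named h2ax2 counts as an H2A cluster gene. Of the 5 that failed, hist2h2l, h2ax1 and 2 hist1h4l entries were listed at 0 in every library, and 1 hist1h2a3 entry (ENSDARG00000110809) reached 1 FPKM in 1 library. No gene passed through 1 group alone.

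The libraries came from hand-picked oocytes of 3-month-old juvenile females, either wild type (WT) or homozygous for tsu7d, a CRISPR/Cas9 allele of the zinc finger gene znf706, whose samples carry the genotype label MZznf706. Each library held polyadenylated RNA from about 600 stage I or about 150 stage II oocytes, with 2 biological replicates for each of the 4 groups: WT and mutant at stage I, WT and mutant at stage II. No other allele or treatment is named for either genotype, and the labels do not say how many females gave the oocytes of a library. For znf706 itself the WT stage I libraries read 232 and 238 FPKM against 181 and 147 in mutants (log2 fold change -0.52, adjusted p = 0.0056), and the stage II libraries 158 and 143 against 129 and 142 (-0.15, adjusted p = 0.29), and since the altered part of the transcript is not given, this level does not check the labels. The 3 CUT&Tag libraries of the series were not analysed here.

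Core histones H2A, H2B, H3 and H4 wrap DNA into nucleosomes, and linker H1 binds where DNA enters and leaves them. Transcripts of the replication-dependent clusters typically end in a stem-loop bound by Slbp instead of a poly(A) tail, whereas variant genes such as those of H3.3 and H2A.Z give polyadenylated transcripts and are used outside S phase. An oocyte stores histone transcripts and proteins for the rapid cleavages of the embryo, and fish oocytes hold an oocyte type of linker histone, h1m. Selection for poly(A) therefore sets which histone transcripts such libraries can hold, and levels of cluster genes given here refer to their polyadenylated part.

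Values are FPKM, which are scaled for transcript length and so can be compared between genes. Levels are given for each library or as mean ± SD over n = 2 libraries. Fold changes are log2 differences with their SE on the log2(FPKM + 1) scale, which understates changes at low values. Tests are from 1 limma fit over the 8 libraries with Benjamini-Hochberg (BH) adjustment over 13862 genes and a threshold of 0.05, and adjusted p below always means this value. The p-values measure only the spread between libraries of a group. Summed FPKM ran from 653659 to 899582 per library and 11992 to 12691 genes reached 1 FPKM. Read counts were not used here and absolute depth is unknown. Relative depth, sought only near equal depth, was 0.892 to 1.04. Oocyte markers were detected in every library (10 of 10, with h1m, 1 of the 50 genes, among them), but not all were high. Their sum ran from 7336 to 7948 FPKM in WT and from 7877 to 7977 in mutants at stage I. At stage II the sum was lower, from 5392 to 5453 in WT and from 4171 to 4352 in mutants. These sums hid figla, the lowest oocyte marker in WT, at 15.6 and 14.4 FPKM in WT stage I against 121 and 103 in mutants. At stage II figla stood at 8.35 and 10.04 FPKM in WT against 57.8 and 52.7 in mutants. At stage I dazl was also higher in mutants (62.3 and 58.9 against 79.3 and 89.9), while ddx4 was lower (92.98 and 68.8 against 48.5 and 50.4). Markers of other cells also moved with genotype. Of the leukocyte list, 12 of 13 markers were above 0 in some library, with mpeg1.1 at 0. The summed leukocyte list ran from 59.2 to 62.9 FPKM in WT and from 161 to 185 FPKM in mutants at stage I. At stage II the sum ran from 48.8 to 49.6 FPKM in WT and from 72.6 to 78.5 FPKM in mutants. The stage I rise lay mainly in arhgdig, at 32.2 and 27.6 FPKM in WT against 143 and 121 in mutants. The other high member, rac2, stood at 26.8 and 26.7 FPKM in WT against 26.0 and 26.4 in mutants. Scarcer members such as cd74a and cd74b were also higher in mutants, while ptprc stayed at or below 0.238 FPKM. The granulosa and theca list (11 of 12, fshr at 0) ran from 254 to 274 in WT and from 103 to 108 in mutants at stage I, and from 95.2 to 124 and from 335 to 355 at stage II. Its stage I sum followed 1 gene, cyp11a1, at 221 and 203 FPKM in WT against 0.153 and 0.0626 in mutants, while cyp17a1 lay the other way (47.9 and 47.6 against 96.2 and 105), as did the scarce gsdf (1.99 and 1.76 against 4.42 and 2.33). At stage II cyp11a1 stood at 53.5 and 82.4 in WT against 278 and 261 in mutants, and cyp17a1 at 34.0 and 34.9 against 73.3 and 69.2. There gsdf was lower in mutants (5.41 and 4.39 against 0.839 and 2.79). The highest of the remaining members was foxl2b, at up to 1.77 FPKM. The blood list (5 of 6, gata1a at 0) was low, and ran from 1.09 to 2.03 FPKM in WT and from 2.78 to 4.86 in mutants at stage I, and from 0.623 to 0.727 and from 4.38 to 5.27 at stage II. The stroma and endothelium list (10 of 10) ran from 9.40 to 14.0 FPKM over the 8 libraries, but this sum held opposite moves. In stage I libraries fn1a stood at 0.371 and 0.349 FPKM in WT against 3.86 and 4.44 in mutants. There krt8 stood at 9.93 and 8.44 against 4.89 and 3.04. In stage II libraries col1a1a was lower in mutants (2.17 and 1.798 against 0.342 and 0.324), as was kdrl. By contrast, krt8 (3.28 and 3.62 against 5.14 and 6.53) and fn1a were higher in mutants at stage II. The list of genes of proliferating cells (7 of 7), which oocytes also store, ran from 2244 to 2257 FPKM in WT and from 2469 to 2579 in mutants at stage I. At stage II it ran from 1771 to 1857 and from 1610 to 1640. Its stage I sum held opposite moves of 2 rrm2 entries. ENSDARG00000078069 stood at 1.07 and 1.51 FPKM in WT against 766 and 694 in mutants, and ENSDARG00000020711 at 1142 and 1187 against 718 and 670. The part of any of these in the differences below was not tested, and in bulk RNA fewer cells of a type and less RNA per cell cannot be told apart.

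Transcripts of the histone genes found by name made up 0.580% to 0.915% of the summed FPKM, and nearly all of that came from 10 genes. Histone genes outside the name patterns are not in this share. The 10 linker and variant genes together held 5336 and 5600 FPKM in WT stage I, 7569 and 6876 in mutant stage I, 4075 and 3840 in WT stage II, and 4157 and 4259 in mutant stage II. The 40 cluster genes together held 475 and 479, 424 and 361, 198 and 186, and 126 and 166 FPKM in the same libraries. Both sums were lower at stage II than at stage I in each genotype. The mutant sum was above WT for linkers and variants at stage I (ratio of means 1.32) and close to it at stage II (1.06). For the cluster genes the mutant sum was below WT at both stages (0.823 and 0.761).

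**Figure D1:**
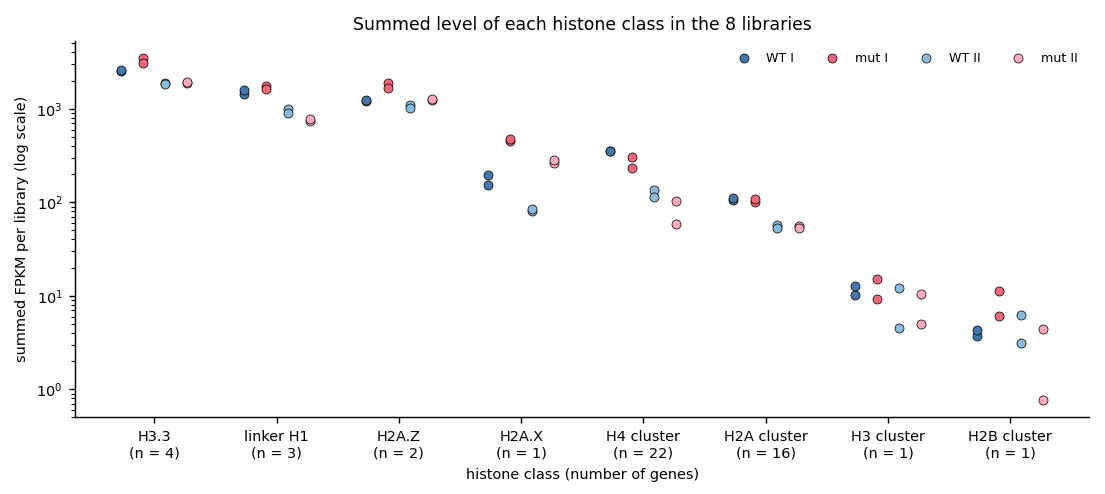
Summed level in FPKM (log axis) of each histone class, 1 point per library, coloured by genotype and stage (n = 2 libraries each). The H3.3 class was the highest in every library (1824 to 3503 FPKM), H2A.X separated the genotypes at both stages, and the H4 sum was lowest in mutant stage II (59.1 and 104 FPKM).

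The most abundant member was an H3.3 gene, ENSDARG00000020504, which ranked 36 to 71 among the genes tested in the 8 libraries. It is named h3f3b.1 in the deposited table and h3f3a in a gene name table. The linker h1m ranked 63 to 109, h2az2a 78 to 187, h3f3d 158 to 231 and h2az2b 252 to 503. The rank of h2ax ran from 1724 in WT stage II to 317 in mutant stage I, the widest span of these genes. Cluster genes were far lower: the mean over the 8 libraries ran from 0.603 to 11.5 FPKM for the H2A entries and from 0.607 to 22.9 for the H4 entries, against 4.97 for hist1h2ba and 9.92 for hist2h3c.

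Between genotypes at stage I, 15 of the 50 histone genes passed the test, 8 higher and 7 lower in mutants, a share of 30% against 45.3% of all genes tested. Of these, 9 of the 10 linker and variant genes passed (6 higher, 3 lower), and 6 of the 40 cluster genes (2 higher, 4 lower). Their precision differed, with a median SE of 0.10 for linkers and variants, 0.37 for cluster genes and 0.15 for all genes, so the share of cluster genes that passed is read with their wider error. The median log2 fold change was 0.37 for the linker and variant genes and 0.012 for the cluster genes, against -0.077 for all genes. With a mean of 5 FPKM or more required, 13 of 29 histone genes passed (44.8%), against 50.2% of all genes. Leaving out WT stage I replicate 1, which leaves 1 library in that group, lowered the count of histone genes and also that of all genes. The histone genes that lost their call in this way are named where they are described.

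At stage II, 16 of the 50 passed, 7 higher and 9 lower in mutants, a share of 32% against 44.6% of all genes. Here 4 of the 10 linker and variant genes passed (3 higher, 1 lower) and 12 of the 40 cluster genes (4 higher, 8 lower). The medians were 0.045 for linkers and variants and -0.36 for cluster genes, against 0.068 for all genes. With no filter on low values the count fell to 10 (20%), against 25.4% of all genes in that setting. With a mean of 5 FPKM or more required, 15 of 29 histone genes passed (51.7%), against 47.2% of all genes. The lower share of histone genes thus did not hold in that setting. Of the 50 genes, 24 passed at 1 stage or both, 7 at both, and 6 of these 7 in the same direction: h2ax, h2az2a, h3f3c and hist1h2a2 were higher in mutants, and hist1h2a10 (ENSDARG00000105366) and hist1h4l (ENSDARG00000110812) lower. The stage I call of the last was lost under several alternatives, given below. The matching shares of all genes were not computed, so these counts are not read as a trait of histone genes.

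**Figure D2:**
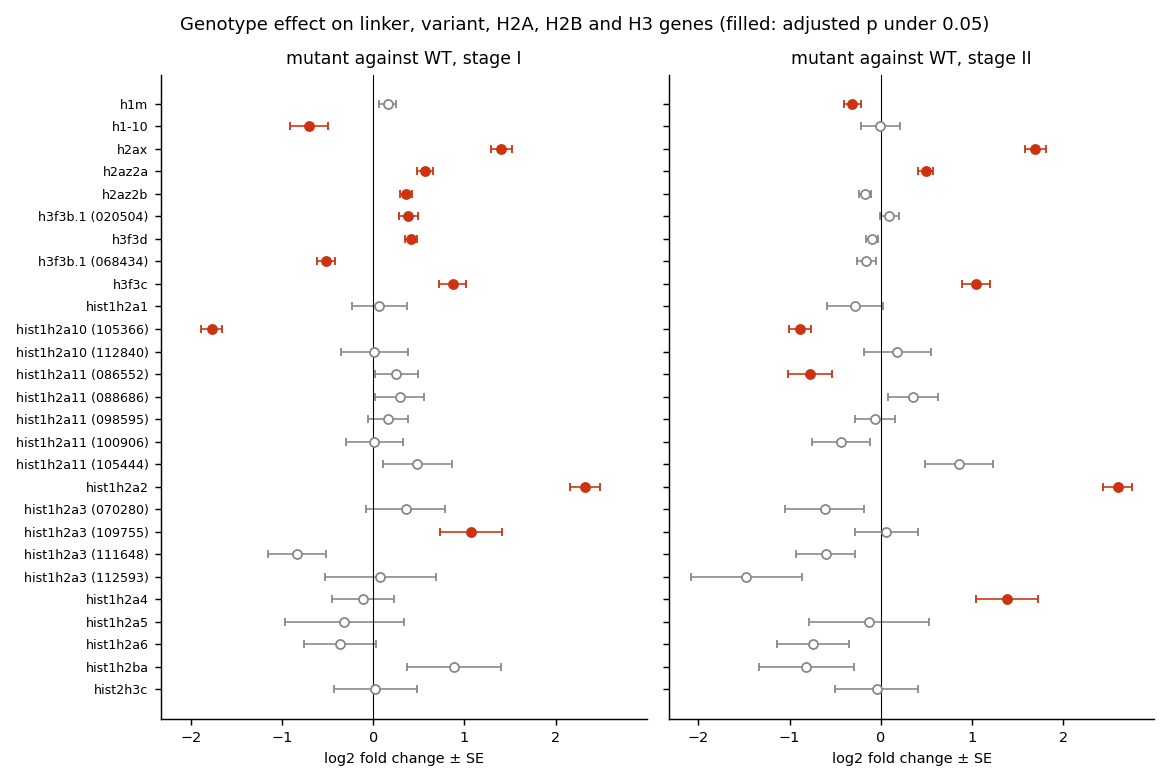
Log2 fold change of mutant against WT (± SE) for 9 of the 10 linker and variant genes and the H2A, H2B and H3 cluster genes at stage I (left) and stage II (right), with filled points for adjusted p under 0.05. The changes of h2ax, h2az2a, h3f3c and hist1h2a2 lie above 0 in both panels and that of 1 of the 2 hist1h2a10 entries below.

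Among the H2A variants found by name, which leave out the macroH2A genes described at the end, h2ax (ENSDARG00000029406) changed most between genotypes. H2A.X is the variant that is phosphorylated beside DNA double-strand breaks. Its level was 152 and 197 FPKM in WT stage I and 447 and 471 in mutant stage I. The stage II libraries read 81.2 and 85.3 in WT and 262 and 282 in mutants. The mutant libraries lay above the WT libraries at both stages without overlap, and even the mutant stage II libraries exceeded both WT stage I libraries. Expressed as log2 fold changes the differences were 1.40 ± 0.12 (2.65-fold, adjusted p = 7.3e-05) and 1.69 ± 0.12 (3.24-fold, adjusted p = 3.4e-05). The difference between these was 0.29 ± 0.16 and missed the threshold (adjusted p = 0.20), but it was called with quantile normalization (0.75, adjusted p = 0.010). Leaving out WT stage I replicate 1 also gave a call (0.48, adjusted p = 0.023). Within the H2A family the share of h2ax rose from 11.5% ± 1.74 in WT to 19.6% ± 1.61 in mutants at stage I and from 6.97% ± 0.459 to 17.1% ± 0.660 at stage II (SD, n = 2, no test).

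H2A.Z, which replaces H2A around the start sites of many genes, came from h2az2a and h2az2b. The gene h2az2a (ENSDARG00000068820) stood at 960 and 977 FPKM in WT stage I and at 1535 and 1339 in mutants, then at 645 and 604 in WT stage II and at 883 and 872 in mutants. It was higher in mutants in every library of each stage, by 0.57 ± 0.086 (adjusted p = 0.0013) at stage I and 0.49 ± 0.086 (adjusted p = 0.0030) at stage II. The second gene, h2az2b (ENSDARG00000116491), stood at 263 and 265 FPKM in WT stage I, 331 and 348 in mutant stage I, 440 and 427 in WT stage II and 373 and 395 in mutant stage II. It was thus higher in mutants at stage I (0.36 ± 0.065, adjusted p = 0.0029) and lay below WT at stage II, where the test was missed (-0.18 ± 0.065, adjusted p = 0.060) but passed under median-of-ratios scaling (-0.30, adjusted p = 0.030). The 2 effects differed (interaction -0.54 ± 0.092, adjusted p = 0.0037).

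The H2A.Z genes also moved apart between the stages. In WT, h2az2a fell by 0.63 ± 0.086 (adjusted p = 4.7e-04) while h2az2b rose by 0.71 ± 0.065 (adjusted p = 7.7e-05), the one of the 50 genes that passed as higher with stage in WT. The share of h2az2a in H2A.Z transcripts went from 78.6% ± 0.142 to 59.0% ± 0.604 in WT and from 80.8% ± 2.04 to 69.6% ± 1.05 in mutants (SD, n = 2). In mutants h2az2a fell by 0.71 ± 0.086 (adjusted p = 2.2e-04). The rise of h2az2b in mutants was 0.18 ± 0.065 (adjusted p = 0.043). That call was lost on leaving out any 1 of the 8 libraries (0.13 to 0.22) and turned to -0.24 under median-of-ratios scaling.

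The H3.3 genes encode the replacement form of H3 that is loaded without DNA replication. ENSDARG00000020504 held 65.8% to 70.2% of H3.3 transcripts in mutants and 62.7% to 68.3% in WT libraries, and h3f3d 26.8% to 32.3% in all 8. ENSDARG00000020504 stood at 1673 and 1768 FPKM in WT stage I, 2460 and 2046 in mutant stage I, 1236 and 1144 in WT stage II and 1261 and 1276 in mutant stage II. The stage I difference was 0.38 ± 0.10 (adjusted p = 0.019) and was lost without WT stage I replicate 1 (0.34, adjusted p = 0.088) or mutant stage I replicate 1 (0.25, adjusted p = 0.099). The stage II difference was 0.093 ± 0.10 (adjusted p = 0.50), and with quantile normalization it was 0.46 and called (adjusted p = 0.0024).

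For h3f3d (ENSDARG00000045248) the libraries read 729 and 695 FPKM in WT stage I, 939 and 953 in mutant stage I, 575 and 590 in WT stage II and 544 and 544 in mutant stage II. It was higher in mutants at stage I (0.41 ± 0.066, adjusted p = 0.0017) but not called at stage II (-0.10 ± 0.066, adjusted p = 0.26), and the 2 effects differed (-0.51 ± 0.093, adjusted p = 0.0049). The other 2 H3.3 genes were scarcer and moved in opposite directions. The h3f3c gene (ENSDARG00000033009) stood at 25.1 and 19.8 FPKM in WT stage I against 42.0 and 41.3 in mutants, and at 12.6 and 10.6 in WT stage II against 22.3 and 27.9 in mutants. Mutant libraries were higher at both stages (0.87 ± 0.15, adjusted p = 0.0025, and 1.04 ± 0.15, adjusted p = 0.0012). The second gene called h3f3b.1 (ENSDARG00000068434) stood at 86.5 and 104 FPKM in WT stage I against 62.8 and 69.2 in mutants, a fall by 0.52 ± 0.10 (adjusted p = 0.0050), and at 79.2 and 80.6 against 67.4 and 75.6 at stage II (-0.16 ± 0.10, adjusted p = 0.24).

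**Figure D3:**
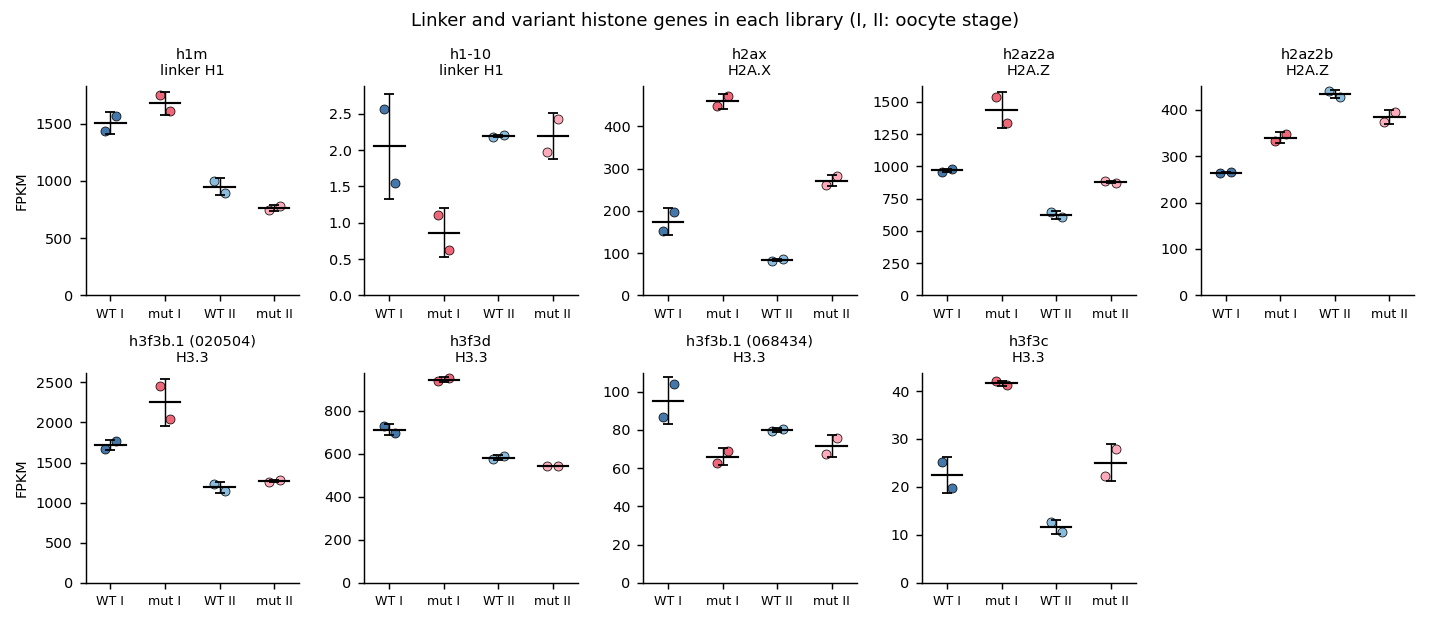
FPKM of 9 of the 10 linker and variant genes in each library (points, n = 2 per group), with the group mean (bar) and SD (whiskers); every axis starts at 0. The mutant points of h2ax, h2az2a and h3f3c lie above the WT points at both stages, and h2az2b is the one gene with both WT stage II points (440 and 427 FPKM) above both WT stage I points (263 and 265 FPKM).

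Among the linker histones found by name, which leave out histh1l described further below, h1m (ENSDARG00000102892) held at least 99.37% of the transcripts in each library. It stood at 1438 and 1571 FPKM in WT stage I, 1749 and 1607 in mutant stage I, 1003 and 897 in WT stage II and 742 and 782 in mutant stage II. At stage I the mutant libraries lay above WT by an amount that missed the threshold (0.16 ± 0.093, adjusted p = 0.21), and at stage II they lay below (-0.32 ± 0.093, adjusted p = 0.027; interaction -0.47 ± 0.13, adjusted p = 0.026). The stage II call was lost without WT stage II replicate 1 (-0.23, adjusted p = 0.15), mutant stage II replicate 1 (-0.28, adjusted p = 0.14) or mutant stage II replicate 2 (-0.35, adjusted p = 0.076), and was ended by quantile normalization (-0.040, adjusted p = 0.66). The interaction was lost on leaving out any 1 of 5 libraries (adjusted p 0.061 to 0.091) and with quantile normalization (-0.15, adjusted p = 0.25).

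The linker h1-10 (ENSDARG00000054058) was scarce. Its level was 2.56 and 1.54 FPKM in WT against 1.104 and 0.626 in mutants at stage I (-0.70 ± 0.21, adjusted p = 0.028) and at 2.18 and 2.21 against 1.97 and 2.42 at stage II (-0.0040 ± 0.21). Its stage I call was lost without WT stage I replicate 1 (-0.46, adjusted p = 0.15) or mutant stage I replicate 2 (-0.52, adjusted p = 0.17).

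The cluster genes need care over which copy a read belongs to. The 22 H4 entries share 1 name, 35 of the 50 genes share their name with another entry, and H2A and H4 copies are close to identical in sequence, so the authors' quantification could have split reads among copies and the level of a single copy is uncertain. As deposited, the whole H2A class did not separate the genotypes: the 16 genes summed to 106 and 111 FPKM in WT stage I, 102 and 109 in mutant stage I, 56.6 and 53.5 in WT stage II and 55.8 and 52.9 in mutant stage II. The ranges overlapped at both stages. Under median-of-ratios scaling they overlapped at stage I only. The scaled stage II sums were 52.7 and 48.3 in WT against 47.5 and 44.3 in mutants. Within the H2A class, 2 genes changed by several-fold in opposite directions.

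The gene hist1h2a2 (ENSDARG00000103015) stood at 4.83 and 3.45 FPKM in WT stage I and at 25.5 and 23.5 in mutants, and at 1.37 and 1.62 in WT stage II and 14.1 and 14.1 in mutants. The mutant libraries were higher by 2.32 ± 0.16 (5.003-fold, adjusted p = 2.9e-05) at stage I and by 2.60 ± 0.16 (6.05-fold, adjusted p = 2.1e-05) at stage II, the largest rises among the 50 genes at either stage. Its share of H2A cluster transcripts was 3.84% ± 1.04 and 2.73% ± 0.423 in WT and 23.3% ± 2.54 and 25.9% ± 1.02 in mutants at stages I and II. The hist1h2a10 entry ENSDARG00000105366 went the other way, from 27.2 and 29.3 FPKM in WT to 7.78 and 7.32 in mutants at stage I and from 7.10 and 6.67 to 3.25 and 3.28 at stage II. It fell by 1.77 ± 0.12 (3.42-fold lower, adjusted p = 2.4e-05) at stage I and by 0.89 ± 0.12 (adjusted p = 8.4e-04) at stage II, and the fall was smaller at stage II (interaction 0.89 ± 0.17, adjusted p = 0.0055). Its share went from 26.1% ± 0.473 to 7.17% ± 0.665 and from 12.5% ± 0.0601 to 6.01% ± 0.261. The second hist1h2a10 entry, ENSDARG00000112840, stood at 7.73 to 8.75 FPKM in the 4 stage I libraries and at 4.04 to 10.1 at stage II, with no difference called (0.011 ± 0.37 and 0.18 ± 0.37).

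The other H2A entries gave 3 calls, each at 1 stage and each lost on leaving out a library. The hist1h2a4 gene (ENSDARG00000051736) stood at 0.279 and 1.04 FPKM in WT stage II against 4.97 and 1.98 in mutants (1.38 ± 0.34, adjusted p = 0.013; without WT stage II replicate 1 1.05, adjusted p = 0.083; without mutant stage II replicate 1 0.88, adjusted p = 0.057). The hist1h2a11 entry ENSDARG00000086552, which the gene name table calls h2ax2, stood at 4.50 and 6.79 against 2.05 and 3.78 FPKM (-0.78 ± 0.24, adjusted p = 0.032) and lost its call on leaving out any 1 of 6 libraries, with values of -0.45 to -0.78. The hist1h2a3 entry ENSDARG00000109755 was listed at 0 in both WT stage I libraries and stood at 1.09 and 1.11 FPKM in mutants (adjusted p = 0.035), a call lost without any 1 of the 4 stage I libraries (adjusted p 0.11 to 0.13). The single H2B and H3 cluster genes were not called between genotypes: hist1h2ba stood at 3.71 and 4.34 against 11.2 and 6.07 FPKM at stage I (0.89 ± 0.52, adjusted p = 0.20), and hist2h3c at 12.9 and 10.3 against 9.14 and 15.0 (0.024 ± 0.45).

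The 22 H4 entries summed to 353 and 353 FPKM in WT stage I, 302 and 230 in mutant stage I, 134 and 114 in WT stage II and 59.1 and 104 in mutant stage II. The mutant sums lay below the WT sums at both stages. A copy listed at 0 adds nothing to its library's sum, and FPKM are scaled by the length of each copy, so the sum is not free of how reads were assigned. Of single copies, 3 passed as lower and 0 as higher at stage I (18.4% of all genes passed as higher and 26.9% as lower), and 6 as lower and 2 as higher at stage II (25.4% and 19.2%). At an unadjusted limma p under 0.05 the counts were 5 lower and 0 higher at stage I, and 9 and 2 at stage II. The share of all genes at that threshold was not computed. Exact 0 values gathered in 1 group: 8 and 8 of the 22 copies were listed at 0 in the mutant stage II libraries, against 1 and 3 in WT stage II and 0 or 1 in each stage I library. At 0 in both mutant stage II libraries were 6 copies, against 0 copies in both WT stage II libraries, and an exact 0 in such a table can be a failed estimate. Of the 6, the scarce ENSDARG00000116781 was also at 0 in both mutant stage I libraries and WT stage II replicate 1. ENSDARG00000115799 was also at 0 in WT stage I replicate 1 and WT stage II replicate 2. The share of all genes listed at 0 was not computed.

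**Figure D4:**
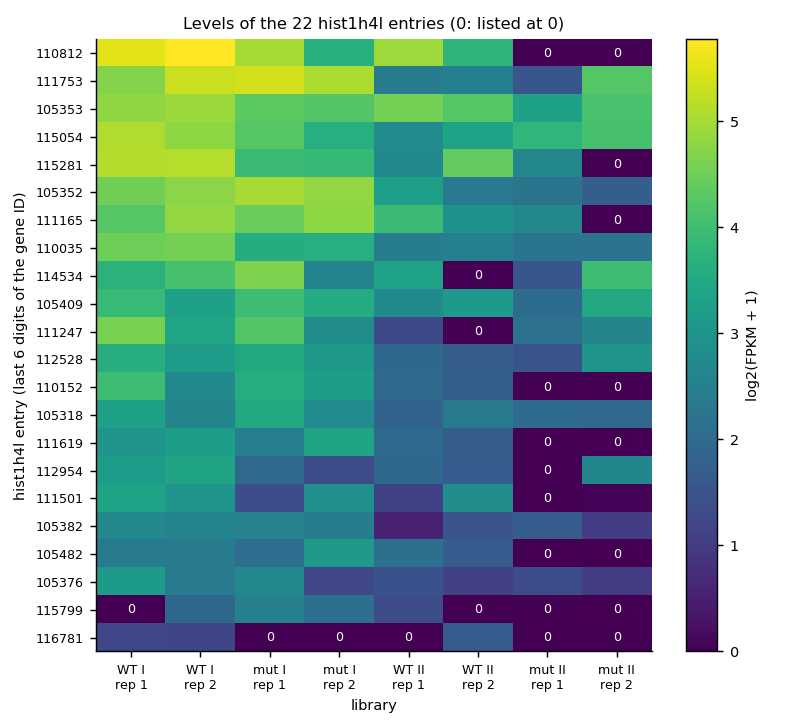
Level of each hist1h4l entry (rows, by the last 6 digits of the gene ID, ordered by mean) in each of the 8 libraries (columns), coloured by log2(FPKM + 1), with 0 written where the entry is listed at 0. The 2 mutant stage II columns hold 8 such entries each, the WT stage II columns 1 and 3.

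The highest H4 copy, ENSDARG00000110812, shows this pattern best. It stood at 45.6 and 53.6 FPKM in WT stage I, 30.7 and 11.7 in mutant stage I and 29.3 and 12.6 in WT stage II, and was listed at 0 in both mutant stage II libraries (adjusted p = 2.7e-04 against WT stage II). Its stage I difference (-1.33 ± 0.46, adjusted p = 0.047) was lost without WT stage I replicate 1 (-1.44), WT stage I replicate 2 (-1.21), mutant stage I replicate 2 (-0.67) and either mutant stage II library (-1.33). Quantile normalization (-1.15, adjusted p = 0.082) and median-of-ratios scaling (-1.25, adjusted p = 0.069) also ended this call. So did a pseudocount of 0.1, no filter, a prior without trend and a robust prior. The copies ENSDARG00000105482, ENSDARG00000110152 and ENSDARG00000111619 were likewise listed at 0 in both mutant stage II libraries and at 2.19 to 3.35 FPKM in the WT stage II libraries (adjusted p 0.0016 to 0.0042). In these 3 the stage I groups overlapped.

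The next 2 copies described were above 0 in every library. ENSDARG00000110035 stood at 21.7 and 22.7 FPKM in WT stage I and at 10.9 and 11.3 in mutants (-0.94 ± 0.12, adjusted p = 5.0e-04), with 4.42 and 4.62 against 3.75 and 3.59 at stage II (-0.24 ± 0.12, adjusted p = 0.13). ENSDARG00000115054 changed direction: it stood at 32.8 and 26.7 in WT stage I against 18.4 and 11.2 in mutants, and at 5.86 and 9.20 in WT stage II against 12.9 and 16.0 in mutants. The fall at stage I was -0.99 ± 0.26 (adjusted p = 0.017) and the rise at stage II 0.88 ± 0.26 (adjusted p = 0.028), and the difference between them was 1.87 ± 0.37 (adjusted p = 0.0067). The stage I call was lost without WT stage I replicate 1 (-0.85) or mutant stage I replicate 2 (-0.66), and the stage II call without WT stage II replicate 1 (0.59) or either mutant stage II library (1.02 and 0.73), while the interaction held under every alternative tried. Of 2 further copies called at stage II, ENSDARG00000111247 was higher in mutants (1.41 and 0 against 3.55 and 5.15 FPKM, adjusted p = 0.042) and ENSDARG00000111501 lower (1.19 and 6.27 against 0 and 0.0380, adjusted p = 0.031). The first is named for the size of its stage change in WT, the second for that of its genotype difference at stage II. Both lost their call without WT stage II replicate 2 and without either mutant stage II library, and the second also without either WT stage I library. A pseudocount of 5, no filter and a robust prior ended both calls. The first was also lost with quantile normalization (1.57, adjusted p = 0.062), median-of-ratios scaling (1.60, adjusted p = 0.056) and a prior without trend. The second was also lost with only the 4 libraries of the comparison.

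Between the stages nearly all called histone genes fell, in both genotypes. In WT, 1 of the 50 passed as higher at stage II and 26 as lower, whereas 38.1% of all genes passed as higher and 22.2% as lower (60.3% in either direction). In mutants, 2 passed as higher and 28 as lower, against 47.3% and 18.7% of all genes (66% in either direction). With a mean of 5 FPKM or more required, 72.4% of 29 histone genes passed in WT, against 69.4% of all genes. In mutants these shares were 69.0% and 73.4%. The median log2 fold change of the 50 was -0.87 in WT and -0.97 in mutants, against 0.15 and 0.32 for all genes, medians that move to -0.0094 and -0.0028 under median-of-ratios scaling. Under that scaling 29 of the 50 were lower and 1 higher in WT, and 34 and 1 in mutants, while all genes split into 4153 higher and 4116 lower in WT and 4136 and 4322 in mutants. A total of 20 genes passed as lower in both genotypes, a count for which the matching share of all genes was not computed. The WT and the mutant libraries are separate in these 2 comparisons.

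**Figure D5:**
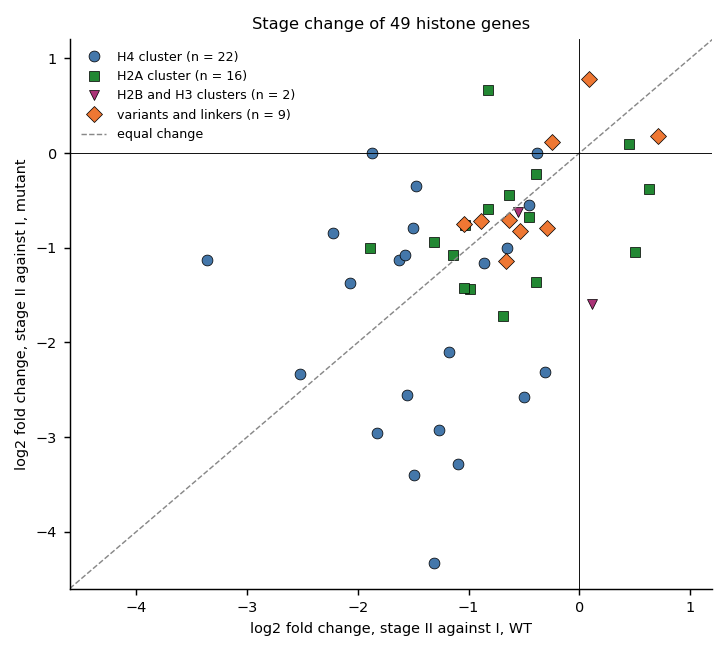
Log2 fold change of stage II against stage I for 49 of the 50 histone genes in WT (horizontal) and in mutants (vertical), with symbols for class and a dashed line at equal change. Most points lie below and to the left of 0, and h2az2b (0.71 in WT, 0.18 in mutants) lies to the upper right.

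The linker h1m fell by 0.66 ± 0.093 in WT (adjusted p = 5.5e-04) and by 1.14 ± 0.093 in mutants (adjusted p = 3.8e-05), and h2ax by 1.04 ± 0.12 (adjusted p = 1.9e-04) and 0.75 ± 0.12 (adjusted p = 7.1e-04). The H3.3 gene h3f3c fell by 0.89 ± 0.15 and 0.72 ± 0.15 (adjusted p = 0.0014 and 0.0035). ENSDARG00000020504 fell by 0.53 ± 0.10 and 0.82 ± 0.10, and h3f3d by 0.29 ± 0.066 and 0.80 ± 0.066, but these depended on scaling. With quantile normalization ENSDARG00000020504 stood at -0.025 in WT and 0.025 in mutants, h3f3d at 0.17 and -0.15, h2az2a in mutants at 0.15 and h2ax in mutants at -0.25, none of them called. The falls of h1m and h3f3c in both genotypes and of h2ax and h2az2a in WT held under every alternative.

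The scarce linker h1-10 differed from this pattern. In mutants h1-10 rose by 0.79 ± 0.21 (adjusted p = 0.012), a call lost without mutant stage I replicate 2 (0.60) or mutant stage II replicate 2 (0.68), and in WT it stood at 0.086 ± 0.21.

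Among cluster genes, 19 of 40 passed as lower in WT and 22 in mutants, and 0 passed as higher in either genotype. At an unadjusted limma p under 0.05 the counts were 21 and 24 lower and again 0 higher. The share of all genes was not computed at that threshold. The H4 copies gave 12 and 13 of the adjusted calls and the H2A genes 7 and 8. The H4 sum fell to 0.352 of its stage I mean in WT and to 0.306 in mutants, and the H2A sum to 0.508 and 0.515. Of single genes, hist1h2a10 ENSDARG00000105366 fell by 1.89 ± 0.12 in WT and 1.00 ± 0.12 in mutants, hist1h2a2 by 1.03 ± 0.16 and 0.76 ± 0.16, and the H4 copy ENSDARG00000110035 by 2.07 ± 0.12 and 1.37 ± 0.12. ENSDARG00000105352, another H4 copy, stood at 21.9 and 26.1 FPKM in WT stage I and at 8.64 and 4.10 in WT stage II, and at 31.6 and 27.7 in mutant stage I and at 3.65 and 2.36 in mutant stage II. Its groups did not overlap in either genotype (-1.83 ± 0.29, adjusted p = 0.0010, and -2.95 ± 0.29, adjusted p = 8.2e-05). Of the other copies with large changes, ENSDARG00000111247 stood at 23.3 and 9.45 FPKM in WT stage I and at 1.41 and 0 in WT stage II (adjusted p = 0.0017), and ENSDARG00000111165 at 20.9 and 26.7 in mutant stage I and at 5.41 and 0 in mutant stage II (-3.28, adjusted p = 0.0053; -1.94 and still called without mutant stage II replicate 2). ENSDARG00000111753 stood at 24.9 and 38.4 FPKM in WT stage I against 4.46 and 4.66 in WT stage II (-2.52 ± 0.72, adjusted p = 0.016), and at 40.8 and 32.7 against 1.90 and 18.1 in mutants (-2.33 ± 0.72, adjusted p = 0.021). Its WT call was lost without WT stage I replicate 2 (-2.22) or either WT stage II library (-2.50 and -2.55), and its mutant call without either mutant stage I library (-2.18 and -2.49). Without mutant stage II replicate 1 the mutant change was -0.97, and without replicate 2 it was -3.69, both called.

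The genotype effect differed between the stages for 13 of the 50 genes (5 with a higher and 8 with a lower log2 difference at stage II), against 36.4% of all genes. Among them were h1m, h2az2b and h3f3d of the linkers and variants and 9 cluster genes. The median difference was -0.085 for the 50 and 0.14 for all genes, a median that moved to -0.032 under median-of-ratios scaling. With a pseudocount of 5 in place of 1 the count was 9 (18%), against 36.8% of all genes. With no filter on low values it was 7 (14%), against 19.4% of all genes.

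Cluster genes were also compared by where they lie. The gene table of another zebrafish assembly, GRCz12tu, placed 23 of the 40 cluster genes, 15 on one chromosome and 8 on a second. Of the 8, 7 passed as lower with stage in WT and 8 in mutants, with a median change of -1.01 and -1.29. Of the 15, 4 passed as lower in each genotype, with a median of -0.83 and -0.62. Of all genes tested, 22.2% passed as lower with stage in WT and 18.7% in mutants. Most of the 8 are H2A genes, while H4 copies are the largest class among the 15. The median SE was 0.44 for H4 copies and 0.33 for H2A genes. Place and class were not separated here, and no test of the difference between the 2 places was made.

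Genes that handle histones were taken from a list of 55, covering processing of histone transcripts, chaperones, import factors and exchange complexes, of which 48 were tested. At stage I 10 passed as higher and 6 as lower in mutants, at stage II 16 and 10 (33.3% and 54.2% of the list, against the 45.3% and 44.6% above). The stem-loop binding protein gene slbp stood at 418 and 416 FPKM in WT stage I against 552 and 501 in mutants (0.33 ± 0.085, adjusted p = 0.014), and at 279 and 250 against 406 and 443 at stage II (0.68 ± 0.085, adjusted p = 6.0e-04). Its stage I call was lost without WT stage I replicate 1 (0.34), WT stage I replicate 2 (0.33) or mutant stage I replicate 1 (0.26), and with quantile normalization (0.20, adjusted p = 0.057). The oocyte form slbp2 stood higher, at 1234 and 1305 FPKM in WT stage I against 1639 and 1566 in mutants (0.34 ± 0.072, adjusted p = 0.0069), and at 711 and 684 against 591 and 589 at stage II (-0.24 ± 0.072, adjusted p = 0.028). The stage II call was lost without any 1 of the 4 stage II libraries (adjusted p 0.063 to 0.13) and with quantile normalization (-0.030, adjusted p = 0.72). The 2 effects differed (-0.58 ± 0.10, adjusted p = 0.0043), a call that quantile normalization also ended (-0.24, adjusted p = 0.061).

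Both fell with stage, as most histone genes did: slbp2 by 0.86 ± 0.072 in WT and 1.44 ± 0.072 in mutants, slbp by 0.66 ± 0.085 in WT and by 0.31 ± 0.085 in mutants. The mutant call of slbp was lost without mutant stage I replicate 1 (-0.24) or mutant stage II replicate 1 (-0.25) and turned to a called rise of 0.34 with quantile normalization. The npat gene, whose product in human cells switches on cluster histone transcription, went the other way, from 13.3 and 12.6 FPKM in WT stage I to 32.2 and 37.8 in WT stage II (1.36 ± 0.12) and from 12.02 and 14.2 to 36.8 and 38.5 in mutants (1.46 ± 0.12). It was not called between genotypes at stage I (0.012 ± 0.12) or stage II (0.10 ± 0.12). Of the 48 list genes tested, 26 passed as higher at stage II and 11 as lower in WT. In mutants the counts were 25 and 9. In either direction this was 77.1% of the list in WT and 70.8% in mutants, against 60.3% and 66% of all genes. Of all genes, 38.1% passed as higher and 22.2% as lower in WT, and 47.3% and 18.7% in mutants.

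Among the called genes of the list, several with large genotype differences encode chaperones and their partners. The gene hirip3 had the largest estimates of the list by size at both stages, which missed the threshold with wide errors (stage I -1.73 ± 1.32, adjusted p = 0.32; stage II -3.42 ± 1.32, adjusted p = 0.067). The H3 and H4 chaperone gene nasp stood at 328 and 317 FPKM in WT stage I against 590 and 568 in mutants (0.84 ± 0.065, adjusted p = 5.3e-05), and at 768 and 736 against 628 and 638 at stage II. The stage II difference (-0.25 ± 0.065, adjusted p = 0.017) was lost without WT stage II replicate 1 (-0.22) or either mutant stage II library (-0.24 and -0.26), and ended by quantile normalization (-0.0054). The chaf1a gene, which encodes the large subunit of the assembly factor CAF-1, stood at 37.1 and 33.1 against 10.3 and 11.2 FPKM at stage I (-1.61 ± 0.13, adjusted p = 7.3e-05) and at 32.0 and 41.6 against 37.8 and 34.1 at stage II (-0.023 ± 0.13). The importin gene ipo4, which carries H3 and H4 into the nucleus, stood at 41.2 and 36.4 against 90.5 and 98.8 at stage I (1.27 ± 0.11, adjusted p = 8.7e-05) and at 66.2 and 80.4 against 69.3 and 72.3 at stage II. The H3 and H4 co-chaperone gene dnajc9 stood at 205 and 204 against 137 and 131 at stage I (-0.61 ± 0.094, adjusted p = 0.0014). The stage II libraries read 40.8 and 33.3 in WT and 143 and 143 in mutants (1.92 ± 0.094, adjusted p = 6.3e-06).

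Smaller differences completed the rule for this list. The sympk gene, a scaffold of the histone cleavage complex, and supt16h, a subunit of the FACT complex, were higher in mutants at stage I (0.79 ± 0.11, adjusted p = 8.7e-04, and 0.63 ± 0.096, adjusted p = 0.0013). At stage II the H2A and H2B chaperone gene nap1l4a (0.79 ± 0.078, adjusted p = 2.0e-04), the H3.3 chaperone gene ubn1 (0.64 ± 0.11, adjusted p = 0.0034) and the H2A.Z exchange gene srcap (0.63 ± 0.17, adjusted p = 0.018) were higher. The call of srcap was lost without WT stage II replicate 1 (0.47) or either mutant stage II library (0.67 and 0.60). The egg nucleoplasmin gene npm2b was lower at stage II, at 1605 and 1540 FPKM in WT and 973 and 997 in mutants (-0.67 ± 0.10, adjusted p = 0.0015). The cenpa gene was not found under that name and was not analysed here.

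The neighbours of the H2A genes with large changes were looked up after their values had been seen. In GRCz12tu the genes next to h2ax are c2cd2l and dpagt1. At stage I c2cd2l changed by -0.13 ± 0.16 (adjusted p = 0.54) and dpagt1 fell by 0.82 ± 0.12 (adjusted p = 9.5e-04), against the rise of h2ax by 1.40. At stage II they stood at 0.043 ± 0.16 and 0.035 ± 0.12, with neither called. Next to hist1h2a2 lies zgc:110425, which stayed between 0.0567 and 0.394 FPKM in the 8 libraries.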

How the data were processed

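Polyadenylated RNA of 8 libraries (2 for each of WT and mutant, stage I and stage II) was analysed. Per the submitters' processing notes, the tools were Trim Galore, STAR 2.5.3a and Cufflinks 2.2.1 with the danRer11 build, and the authors deposited 1 table of FPKM. The step that each tool did is not given in the sources used here, nor is how reads shared by copies were counted. Of gene IDs listed more than once, 24 had identical entries, used once, and 103 had entries that differ, which were not used; none of the latter is a histone gene named here. The 13862 genes that reached 1 FPKM in 2 or more libraries were tested on log2(FPKM + 1) with limma 3.58.1 in R 4.3.3, using 4 group means, moderated variances with a mean trend, and BH adjustment (degrees of freedom: 4 residual, 3.78 prior). The procedure was tested on simulated data.

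The histone genes, the gene lists and the marker lists were chosen with earlier results of these data known. Named were the linkers and variants (1 linker gene, included in counts and sums, is not reported singly here), the 8 members highest in mean FPKM, up to 6 called members with the largest change whose groups do not overlap for each comparison, up to 6 list genes for each genotype comparison, and slbp, slbp2, npat and nasp. The genes hist1h2a4, hist1h2a11, hist1h2ba, hist2h3c, the second hist1h2a10 entry, macroh2a1, macroh2a2, histh1l and neighbours of h2ax and hist1h2a2 lie outside that rule and were named after their values were seen. So were hirip3 and the H4 copies ENSDARG00000115799 and ENSDARG00000116781. Names in a gene name table were found for 46 of the 50 IDs, and a RefSeq gene table (assembly GRCz12tu) gave order along chromosomes only. Other settings tried were a pseudocount of 0.1 or 5, testing genes without a filter or with a mean of 5 FPKM or more, 2 scalings (quantile normalization and median of ratios), a prior without trend or made robust, a replicate block, only the 4 libraries of a comparison, conflicting entries at their mean, and each library left out.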

Additional observations from a re-analysis of the deposited data

Results flagged for a closer look

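The genotype effect at stage II differed from that at stage I (limma interaction, BH adjusted p under 0.05) for 13 histone genes, 12 of them given here as the stage II minus the stage I log2 difference. For the linkers and variants it was -0.47 in h1m, -0.54 in h2az2b and -0.51 in h3f3d. For the H2A cluster it was 0.89 in hist1h2a10 (ENSDARG00000105366), -1.03 in hist1h2a11 (ENSDARG00000086552) and 1.49 in hist1h2a4 (ENSDARG00000051736). For the H4 copies it was -2.08 in ENSDARG00000105482, 0.70 in ENSDARG00000110035, -1.91 in ENSDARG00000110152, -3.01 in ENSDARG00000110812, -1.65 in ENSDARG00000111619 and 1.87 in ENSDARG00000115054. Of these, the values of h2az2b, h3f3d, hist1h2a10, ENSDARG00000105482 and ENSDARG00000115054 held under every alternative tried. The 4 H4 copies with values of -1.65 or lower were listed at 0 in both mutant stage II libraries, where an exact 0 can be a failed estimate.

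Of the genes that handle histones, the interaction was called for chaf1a (1.59), dnajc9 (2.53), ipo4 (-1.31), nap1l4a (0.69), nasp (-1.09), slbp2 (-0.58) and sympk (-0.55). The call of slbp2 was lost with quantile normalization (-0.24, adjusted p = 0.061), and that of sympk on leaving out any 1 of 6 libraries. It was also called for macroh2a2 (1.14), which lost its call on leaving out any 1 of 5.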

How the results depend on the processing

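Of 137 calls on named genes, 90 held under every alternative, and 47 were lost or turned under at least 1, of which 7 turned. Without WT stage I replicate 1, 9 histone genes passed between genotypes at stage I in place of 15, and leaving out each library in turn gave 9 to 17. The ranges were 14 to 16 at stage II, 20 to 32 for stage in WT, 22 to 31 for stage in mutants and 10 to 15 for the interaction. The count of all genes called at stage I also fell without WT stage I replicate 1. With no filter on low values, 10 passed at stage II and 7 for the interaction, where 24095 genes were adjusted over in place of 13862. Of all genes, 25.4% and 19.4% passed in that setting, against 44.6% and 36.4% with the filter. Quantile normalization turned called stage changes in mutants to 0.15 for h2az2a, 0.025 for h3f3b.1 (ENSDARG00000020504) and 0.34 for slbp, and in WT to 0.17 for h3f3d and 0.021 for npm2b. Median-of-ratios scaling turned those of h2az2b to -0.24 and of supt16h to -0.051 in mutants, and the cause was not tested. It also moved the split of all genes called at stage II to 2769 higher and 3377 lower, and of the interaction to 2393 and 2627, from 3521 and 2659 and from 3235 and 1804.

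Values that had not been called changed sign as follows. Under quantile normalization they were 0.050 (interaction of ENSDARG00000020504), 0.12 (h3f3d at stage II), -0.057 (stage in mutants of ENSDARG00000068434), 0.35 (interaction of h2az2a) and -0.051 (stage in WT of h1-10). Under median-of-ratios scaling they were -0.29 (stage in mutants of ENSDARG00000068434), -0.027 (ENSDARG00000020504 at stage II), -0.031 (interaction of h3f3c) and -0.052 (stage in WT of h1-10). With each library left out in turn the values ran from -0.17 to 0.023 for the interaction of h2az2a, from -0.16 to 0.33 for stage in WT of h1-10 and from -0.11 to 0.10 for h1-10 at stage II.

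Replicate numbers did not pair the libraries: replicate differences correlated between groups at r = -0.041 to 0.065 across 13862 genes. With the replicate block 16, 18, 28, 31 and 16 histone genes passed (stage I, stage II, stage in WT, stage in mutants, interaction), against 15, 16, 27, 30 and 13, and 133 of the 137 calls held. Of all genes, 43.0%, 42.5%, 58.8%, 65.0% and 34.1% passed with the block, against 45.3%, 44.6%, 60.3%, 66% and 36.4% without it. FPKM hide the depth. For the scarce cluster copies the median SD between replicates on the log2 scale was 0.17 to 0.44, against 0.058 to 0.14 for linkers and variants. The cause of this wider spread was not tested.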

Other observations

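Histone genes outside the name patterns were looked up after seeing the values above. The macroH2A gene macroh2a1 (ENSDARG00000099329), whose protein carries a large globular domain beside its H2A part, stood at 3.11 and 3.19 FPKM in WT stage I against 0.403 and 0.700 in mutants, and at 4.71 and 5.44 in WT stage II against 1.03 and 1.16 in mutants. It was lower in mutants at both stages (-1.43 ± 0.16, limma BH adjusted p = 3.2e-04, and -1.53 ± 0.16, adjusted p = 2.6e-04), opposite to h2ax. The second macroH2A gene, macroh2a2, stood at 7.45 and 8.95 against 1.75 and 1.75 FPKM at stage I (-1.74 ± 0.21, adjusted p = 5.0e-04). Its stage II libraries read 3.29 and 2.12 against 1.095 and 1.78, a difference that missed the threshold (-0.60 ± 0.21, adjusted p = 0.053). The linker gene histh1l stood at 11.4 and 9.50 against 4.20 and 4.53 FPKM at stage I and at 4.28 and 6.26 against 1.70 and 1.44 at stage II, lower in mutants at both (-1.09 ± 0.19, adjusted p = 0.0026, and -1.27 ± 0.19, adjusted p = 0.0014). Leaving out any library ended none of these 5 calls.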
